A study of Saccharomyces cerevisiae with 24 samples.

Results

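Yeast makes its fatty acids by a short pathway, and 10 of its genes were followed through the switch from air to nitrogen. They were picked out of the files by systematic name, from a list drawn up with earlier results of these data known, and are 10 of the 7140 features counted in each library. The 10 are ACC1, FAS1, FAS2, OLE1, ELO1, ELO2, ELO3, FAA1, FAA4 and ACB1. All 10 passed the filter on low counts, which kept 6262 features.

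Polyadenylated RNA was sequenced from 3 courses of 8 samples, which gives 24 libraries. In each course the first sample (0 min) was taken in air, and the rest after 5, 10 and 30 min and then after 60, 120, 180 and 240 min under 100% nitrogen. Every library came from strain yMH914, of S288C background, with the genotype MATa ura3D0 his3D200 leu2D0 lys2-128d and a repaired HAP1, the gene of a heme-activated transcription factor. Cells grew at 30° in YPD, and neither ergosterol nor Tween 80, a source of unsaturated fatty acids, was added. The 0 min sample was taken before the culture was diluted, and no diluted culture was kept in air. The nitrogen and the dilution therefore cannot be told apart in any comparison with 0 min. The paper states that the dilution was set for cultures to be at midlog when sampled. The dilution and the growth after it may therefore also differ between the times under nitrogen, and their part there was not tested. The labels number the courses as replicates and do not say whether they were grown apart, so p values measure the spread between these courses. The culture is 1 strain, and its bulk RNA does not separate fewer cells of a kind from less RNA in each cell.

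Total counts were 4980240 to 16346113 per library. The hypoxic genes DAN1, TIR1, ANB1 and HEM13 rose and CYC1 fell at 240 min (5 of 5 called by edgeR against 0 min). STE2, which marks MATa cells, had 570 to 1234 CPM (counts scaled to an effective library size of 1000000). URA3, HIS3 and LEU2 had at most 2 counts in a library, as the genotype states. Course 1 stood apart from courses 2 and 3. At 0 min, OLE1, FAS1, FAS2, ACC1 and FAA4 were 4.12, 4.93, 5.12, 3.76 and 2.81 times lower in course 1 than in the highest course. Of 4 genes specific to MATalpha cells, 1 stood apart by course: MFALPHA2, a pheromone gene, had 47 to 93 counts in each library of course 1 and 0 to 9 in the others. MFALPHA1, the other pheromone gene, had 0 to 5 counts in every library, and the ranges of STE3 (2.99 to 20.2 CPM) and SAG1 (12.5 to 34.6 CPM) overlapped between courses. The part of these differences in the results was not tested.

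Acetyl-CoA carboxylase, the product of ACC1, makes malonyl-CoA, and the cytosolic fatty acid synthase, built from the FAS1 and FAS2 subunits, uses it to build saturated chains. OLE1 encodes the only acyl-CoA desaturase of the cell, an enzyme of the endoplasmic reticulum that needs molecular oxygen to put in a double bond. Its transcription is driven by Mga2 and Spt23, membrane proteins that are cut loose when membranes lack unsaturated chains, and a low oxygen response element (LORE) in its promoter is known to answer to hypoxia. ELO1, ELO2 and ELO3 encode the elongases, FAA1 and FAA4 the main synthetases that load long-chain fatty acids on coenzyme A, and ACB1 the protein that binds the product. Several of these genes are also known to respond to inositol and choline through the activators Ino2 and Ino4 and the repressor Opi1.

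The promoters are shown first, as a description of their letters. The 600 bases before each start codon were searched on both strands for ACTCAACAA, the LORE, for CATGTG, the core of the Ino2 and Ino4 element, and for ATTGTT, the core bound by the repressor Rox1. ACTCAACAA was found before 29 of 5994 genes (0.484%) and, of the 10, only before OLE1, where it starts 343 bases before the start codon. The LORE of OLE1 was known beforehand, so this match was fixed in advance and is no test. ATTGTT was found before 3290 genes (54.9%), and before 5 of the 10, and lies 3 times before OLE1, at 269, 220 and 127 bases. In the stretch of OLE1 from 400 to 101 bases before its start codon, capitals mark the LORE and then the 3 Rox1 cores, the middle one on the other strand (R64, plus strand, chrVII:398228-398527).
OLE1: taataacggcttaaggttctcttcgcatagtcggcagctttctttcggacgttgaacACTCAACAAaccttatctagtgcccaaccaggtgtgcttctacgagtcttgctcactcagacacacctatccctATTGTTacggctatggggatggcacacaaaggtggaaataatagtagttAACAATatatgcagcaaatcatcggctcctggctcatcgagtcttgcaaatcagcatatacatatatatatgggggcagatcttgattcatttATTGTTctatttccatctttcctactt
CATGTG was found before 982 genes (16.4%) and before 4 of the 10. These 4 stretches of 40 bases show each match in capitals, read along the coding strand, so that a match on the other strand reads CACATG. They lie at chrXVI:108403-108442 (plus), chrXIV:661694-661733 (minus), chrIII:190408-190447 (plus) and chrXV:908927-908966 (plus).
FAS2: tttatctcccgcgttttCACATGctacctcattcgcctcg
ACC1: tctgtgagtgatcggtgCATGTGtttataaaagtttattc
ELO2: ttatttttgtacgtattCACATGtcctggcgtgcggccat
FAA1: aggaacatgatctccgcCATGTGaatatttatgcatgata
None of these matches overlap. They are matches of letters only, and binding was not measured. FAS1 held none of the 3 motifs in this window.

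OLE1 (YGL055W, R64 chromosome VII, 398628 to 400160, plus strand, 1 coding exon) fell early and was at its highest late. In order of time, its 8 libraries had 1515, 2487, 1115, 1250.0, 1871, 6010.2, 6564 and 7582 CPM in course 1. In course 2 it had 6003, 2399, 511, 1548, 2563, 7131, 6990.5 and 8546 CPM. In course 3 it had 6244, 1189, 303, 1494, 2539.6, 6725, 9120.1 and 8177 CPM. The lowest library was the one at 10 min in all 3 courses. The libraries at 180 and 240 min all lay above those at 0 min, and those at 120 min overlapped with 0 min.

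**Figure D1:**
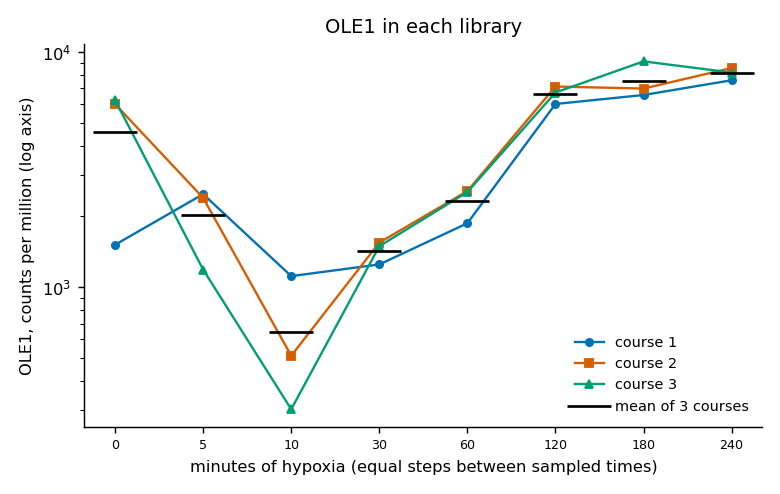
OLE1 in each of the 24 libraries, in CPM on a log axis, against minutes of hypoxia in equal steps; lines join the libraries of a course and black bars are means of 3 courses. The lowest library of each course is at 10 min (1115, 511 and 303 CPM), and the courses lie farthest apart at 0 min (1515, 6003 and 6244 CPM).

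The mean of OLE1 was 643 ± 422 CPM at 10 min, against 4587 ± 2664 CPM at 0 min (SD, n = 3 each), a log2 fold change of -2.83 (SE 0.47, adjusted p = 0.00019). At 30 min it was 1431 ± 159 CPM, and the log2 fold change against 0 min was -1.68 (SE 0.45, adjusted p = 0.0080). By 240 min the mean was 8102 ± 486 CPM. The change from 0 min was then 0.82 (SE 0.44, adjusted p = 0.21), which did not pass, although the 3 libraries at 240 min lay above the 3 at 0 min. Such a lack of overlap, in the higher direction, was found for 17.3% of all genes. At 240 min OLE1 was higher than at 30 min, with a log2 fold change of 2.50 (SE 0.46, adjusted p = 0.0014). Ordered by the mean, the times ran 10, 30, 5, 60, 0, 120, 180 and 240 min. The libraries of 10 and 30 min did not overlap, and those of 30 and 5 min, of 5 and 60 min, of 60 and 0 min, of 0 and 120 min and of 120 and 180 min overlapped, as did those of 180 and 240 min.

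Several calls for OLE1 were lost without course 2 or 3 and none without course 1, with equally many libraries in each of these fits. The adjusted p at 10 min was 0.091 without course 2 and 0.055 without course 3, with log2 fold changes of -2.44 and -2.18, and 2.7e-08 without course 1, with -3.85. In course 1 alone OLE1 was 1.36 times lower at 10 min than at 0 min, against 11.7 times in course 2 and 20.6 times in course 3. The change at 30 min was -1.48 and -1.38 without course 2 and course 3 (adjusted p = 0.25 and 0.16). At 240 against 30 min it was as large without each course, at 2.46, 2.53 and 2.50 without courses 1, 2 and 3, and missed the threshold without course 2 or 3 (adjusted p = 0.14 and 0.064). Over all times OLE1 passed without course 3 (adjusted p = 0.025) and missed without course 2 (adjusted p = 0.067).

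FAS1 and FAS2 encode the beta and the alpha subunit of the synthase, and their patterns lay closest together among the 45 pairs of the 10 genes. The pair of ELO2 and ELO3 lay almost as close. FAS1 (YKL182W, chromosome XI, 100671 to 106826, plus strand) was called lower at 10 and at 30 min, but did not fall in course 1. It had 691, 779 and 567 CPM at 10 min, against 657, 2807 and 3236 CPM at 0 min in courses 1, 2 and 3. The library of course 1 was near its start, and those of courses 2 and 3 stood well under their own starts. This was a log2 fold change of -1.72 (SE 0.40, adjusted p = 0.0044). At 30 min it was -1.19 (SE 0.40, adjusted p = 0.033). With counts scaled to the library totals it was -0.90 (adjusted p = 0.052) and did not pass. The libraries of 30 min, at 796 to 1110 CPM, all lay above the start of course 1 and under those of courses 2 and 3. At 240 min FAS1 had 2135, 3069.7 and 3435 CPM, and it rose against 30 min by 1.55 on the log2 scale (SE 0.40, adjusted p = 0.017). Against 0 min the change was 0.37 (SE 0.39, adjusted p = 0.61). Without course 2 or 3 none of these calls of FAS1 passed. The log2 fold changes were then -1.62 and -1.20 at 10 min (adjusted p = 0.22 and 0.40), -1.07 and -0.81 at 30 min (0.38 and 0.52), and 1.61 and 1.43 at 240 against 30 min (0.31 and 0.39).

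FAS2 (YPL231W, chromosome XVI, 108652 to 114315, plus strand) had values of the same shape. They were 531, 1251 and 986 CPM at 10 min, against 793, 3761 and 4064 CPM at 0 min. All 3 courses were lower at 10 min than at their own start, but the 3 starts lay 5.12 times apart. The log2 fold change of -1.64 (SE 0.61) had an adjusted p of 0.074. With the course as a block it passed, at -1.46 (adjusted p = 9.8e-07), as it did at 30 min, at -1.27 (adjusted p = 3.5e-06). At 240 min FAS2 had 1775, 4308 and 4066 CPM, against 558, 1479.6 and 1189 CPM at 30 min, and no libraries overlapped. That change was 1.65 (SE 0.61, adjusted p = 0.10), and 1.66 with the block (adjusted p = 4.8e-07).

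The log2 ratio of FAS1 to FAS2 per kilobase within a library ranged over the 24 libraries between -0.92 and 0.51. It averaged -0.28 ± 0.39 at 240 min, against -0.46 ± 0.08 at 0 min (SD, n = 3 each), and the difference of 0.19 had an exact two-sided permutation p of 0.6, the smallest possible being 0.1. The ratio was above 0 in 7 of the 8 libraries of course 1 and below 0 in all 16 libraries of courses 2 and 3.

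ACC1 (YNR016C, chromosome XIV, 654673 to 661374, minus strand) was highest late. It had 4823, 6289.9 and 5438 CPM at 240 min, against 2436, 2771 and 1714 CPM at 30 min and 1185, 3415 and 4448 CPM at 0 min. All 3 libraries at 240 min lay above those of both earlier times. It rose against 30 min, with a log2 fold change of 1.26 (SE 0.34, adjusted p = 0.023), and it was 1.32 without course 2 and 1.07 without course 3, which did not pass (adjusted p = 0.30 and 0.44). Against 0 min the change was 0.87 at 240 min (SE 0.34, adjusted p = 0.075), and with the counts scaled to the library totals it was 1.19 (adjusted p = 0.0072) and passed. Over all 8 times ACC1 differed (adjusted p = 0.0014), but none of its changes from 0 min reached 2-fold. At 180 min, with the course as a block, ACC1 passed at 1.01 (adjusted p = 0.0088).

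**Figure D2:**
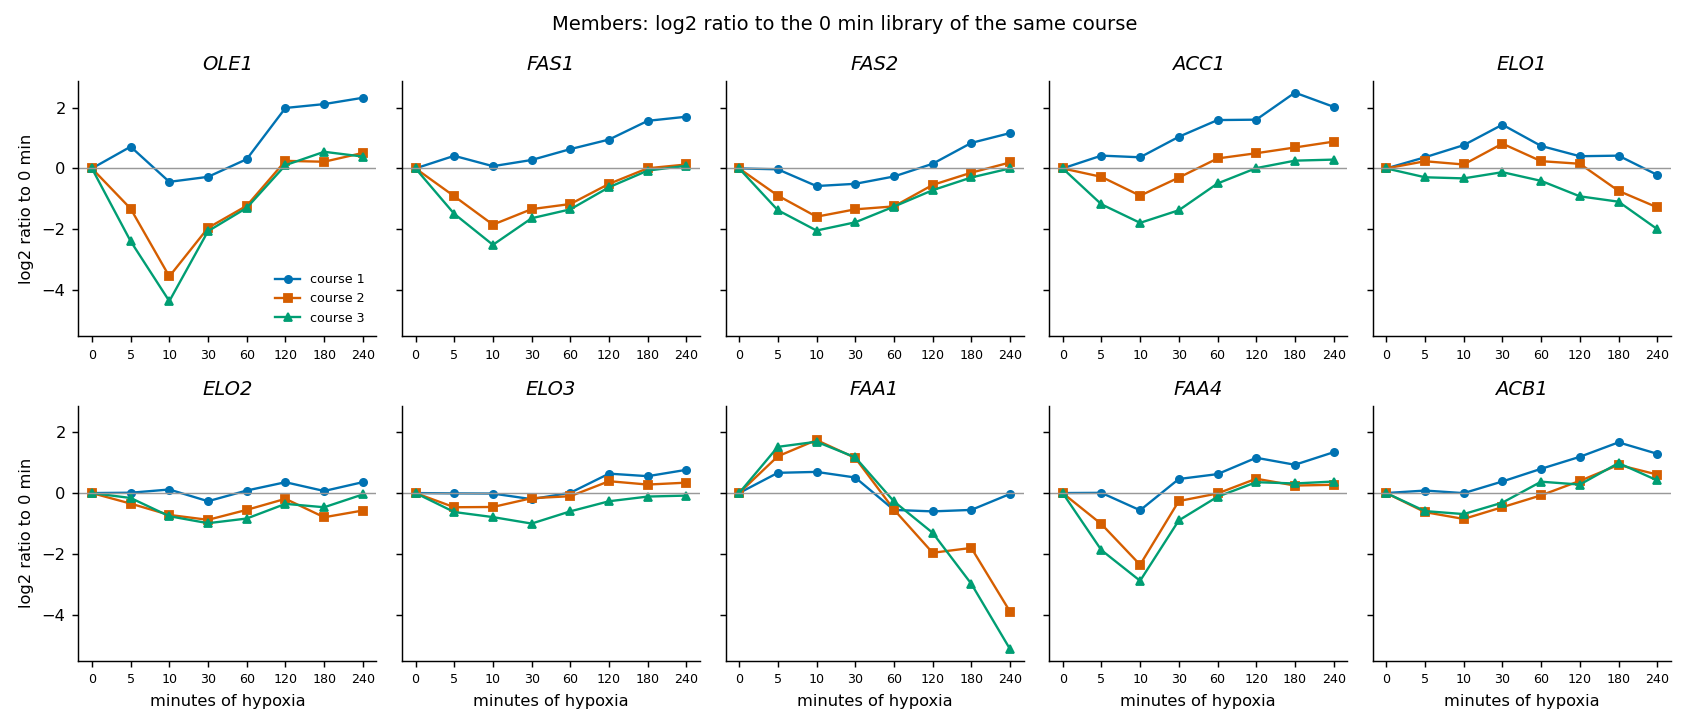
Log2 ratio of each of the 10 genes to the 0 min library of its own course, against minutes of hypoxia in equal steps, for courses 1, 2 and 3. OLE1, FAS1, FAS2 and FAA4 dip at 10 min in courses 2 and 3, FAA1 goes up and then far down in those courses, and ELO2 and ELO3 show the narrowest ranges.

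The long-chain acyl-CoA synthetases FAA1 and FAA4 differed in the shape of their courses. FAA4 (YMR246W, chromosome XIII, 759807 to 761891, plus strand) fell at 10 min. It had 247, 200.01 and 139 CPM at 10 min, against 365, 1027 and 1025 CPM at 0 min, with no overlap between the times. FAA4 had a log2 fold change of -2.05 (SE 0.39, adjusted p = 0.00084), and it was -1.84 without course 2 and -1.60 without course 3, which did not pass (adjusted p = 0.10 and 0.16). At 30 min FAA4 had 503, 855 and 549 CPM, above the start of course 1 and under those of courses 2 and 3. The change from 0 min was then -0.34 (SE 0.38, adjusted p = 0.62). Its values at 240 min were 927, 1239.7 and 1333 CPM, and the change from 0 min was 0.53 (SE 0.38, adjusted p = 0.38).

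FAA1 (YOR317W, chromosome XV, 909343 to 911445, plus strand), which also takes part in the import of fatty acids, differed over time (adjusted p = 0.018) with no single comparison called. At 10 min it had 215, 438 and 531 CPM, against 133, 131 and 165 CPM at 0 min, higher in 3 of 3 courses with no overlap. Its log2 fold change was 1.47 (SE 0.81, adjusted p = 0.28). At 240 min FAA1 had 129.8, 8.57 and 4.50 CPM, from counts of 1090, 61 and 66. Course 1 was then at about its start, while courses 2 and 3 were far under theirs, so that the libraries of 240 min spanned 28.9-fold. The log2 fold change against 0 min was -1.58 (SE 0.82, adjusted p = 0.19). Without course 1 it was -4.50 (adjusted p = 7.8e-06), and against 30 min, without course 1, it was -5.74 (adjusted p = 5.0e-06). Without course 2 or 3 the change from 0 min was -1.14 and -0.91 (adjusted p = 0.74 and 0.72), and the call over time was lost (adjusted p = 0.65 and 0.44). With all courses the change from 30 min was -2.58 (SE 0.85, adjusted p = 0.062), and it passed with the block, at -2.87 (adjusted p = 0.034).

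Within a library the log2 ratio of FAA1 to FAA4 per kilobase ranged from -8.22 to 1.93. At 10 min it was -0.21, 1.12 and 1.93 in courses 1, 2 and 3, the highest of each course. At 240 min it was -2.85, -7.19 and -8.22, against -1.48, -2.99 and -2.65 at 0 min. The difference was -3.72 ± 2.14 (SD over courses), lower in 3 of 3 courses, with an exact two-sided permutation p of 0.2. In all, 5 such ratios were tested, and their adjusted p values were 0.25 to 0.60.

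**Figure D3:**
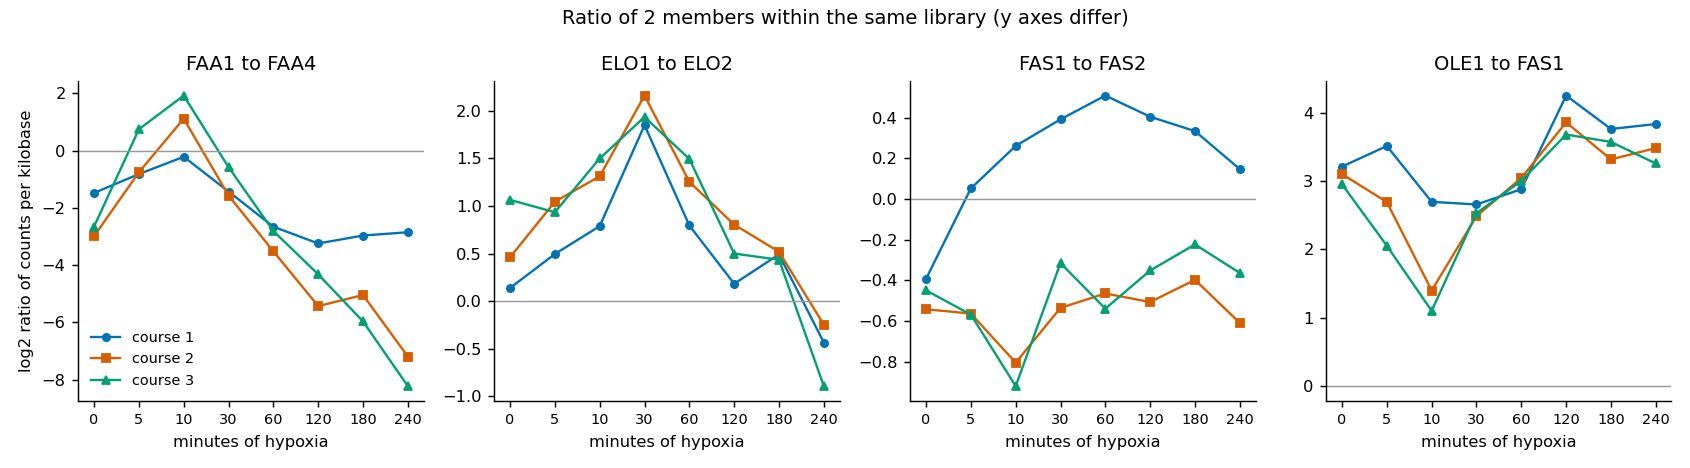
Log2 ratio of counts per kilobase of 2 genes within the same library, against minutes of hypoxia in equal steps, for courses 1, 2 and 3; the y axes differ. FAA1 to FAA4 is highest at 10 min in every course and ELO1 to ELO2 at 30 min, while FAS1 to FAS2 lies above 0 in 7 libraries of course 1 only.

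Of the elongases, ELO1, which extends medium chains, fell late, and ELO2 and ELO3, which make the very long chains of sphingolipids, were not called at any time. ELO1 (YJL196C, chromosome X, 67850 to 68782, minus strand) had 356, 304 and 257 CPM at 30 min, the highest of courses 1 and 2. By 240 min ELO1 had 113, 71.1 and 70.0 CPM, against 131, 173 and 280.0 CPM at 0 min, with no overlap. The log2 fold change was -1.20 (SE 0.26, adjusted p = 0.0018) against 0 min and -1.85 (SE 0.26, adjusted p = 0.00012) against 30 min. With counts scaled to library totals the change from 0 min was -0.88, under 2-fold. It was -0.70 without course 3 (adjusted p = 0.22) and -1.15 without course 2 (adjusted p = 0.11). Against 30 min ELO1 was at -1.74 without course 2, which did not pass (adjusted p = 0.059). At 240 against 120 min it was -1.01 (SE 0.26, adjusted p = 0.13), and with the block -1.03 (adjusted p = 0.015).

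ELO2 (YCR034W, chromosome III, 190592 to 191635, plus strand) had 111, 76.3 and 75.3 CPM at 30 min, against 133, 141 and 150.0 CPM at 0 min. Each course was lower than at its start and the libraries did not overlap, but the log2 fold change of -0.69 (SE 0.27) had an adjusted p of 0.069. With the course as a block it was -0.73 (adjusted p = 0.00092), under 2-fold. ELO3 (YLR372W, chromosome XII, 867354 to 868391, plus strand) had 1065, 549 and 520.3 CPM at 240 min, against 627, 433 and 551 CPM at 0 min, and the change was 0.41 (SE 0.40, adjusted p = 0.56). With the block ELO3 differed over all times (adjusted p = 5.6e-05), but its largest change from 0 min, -0.47, was under 2-fold. The log2 ratio of ELO1 to ELO2 within a library peaked at 30 min in each course, at 1.85, 2.16 and 1.93. The values at 240 min were -0.43, -0.25 and -0.89, against 0.14, 0.46 and 1.06 at 0 min. The difference of -1.08 ± 0.76 was lower in 3 of 3 courses, and its exact two-sided permutation p of 0.1 was the smallest that 3 against 3 allow.

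ACB1 (YGR037C, chromosome VII, 559731 to 559994, minus strand), which carries acyl-CoA in the cytosol, rose late. It had 3251, 2449 and 2133 CPM at 180 min, the highest of each course, against 1023, 1289 and 1077 CPM at 0 min. The log2 fold change was 1.21 (SE 0.28, adjusted p = 0.0034), and without course 2 it was larger, at 1.40, but did not pass (adjusted p = 0.10). Its 3 values at 240 min were 2504, 1965 and 1437 CPM, all above 0 min, and the change of 0.80 (SE 0.28, adjusted p = 0.042) was under 2-fold. Per kilobase, ACB1 and OLE1 were the most abundant of the 10 at 240 min, at 7457 ± 2022 and 5285 ± 317 CPM per kb, against 4279.6 ± 533 and 2992 ± 1737 CPM per kb at 0 min (SD, n = 3 each). FAA1 was the least abundant at both times, at 22.6 ± 33.9 CPM per kb at 240 min and 67.8 ± 9.06 CPM per kb at 0 min.

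The calls of the 10 genes were also counted together. At 10 min 3 of 10 fell (OLE1, FAS1, FAA4) and none rose, where 6.36% of all genes tested fell and 5.64% rose. At 30 min 2 of 10 fell (OLE1, FAS1), where 9.57% of all genes did. At 180 min 1 of 10 rose (ACB1), where 6.58% did, and at 240 min 1 of 10 fell (ELO1), where 8.43% did. At 240 against 30 min 3 of 10 rose (OLE1, FAS1, ACC1), where 3.21% of all genes did, and 1 of 10 fell (ELO1), where 3.02% did. Over all times 6 of 10 were called (OLE1, FAS1, ELO1, FAA1, FAA4, ACB1), where 19.9% of all genes were.

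None of the 10 was called by edgeR at 5, 60 and 120 min against 0 min, where 5.96%, 11.7% and 10.4% of all genes were, or at 240 against 120 min, where 0.303% were. At an unadjusted p under 0.05 there were 3, 2 and 1 of the 10 at 5, 60 and 120 min, and 1 at 240 against 120 min. DESeq2 called 1 (FAA4) at 5 min, 0 at 60 and 120 min and 1 (ELO1) at 240 against 120 min. The libraries of a pair of times were also compared for overlap. At 10 min 1 of the 10 genes lay above 0 min in all libraries (FAA1) and 3 lay below (OLE1, FAA4, ACB1), where 12.6% and 14.5% of all genes did. At 30 min 1 lay above (FAA1) and 1 below (ELO2), where 16.2% and 17.7% did. At 240 min 3 lay above (OLE1, ACC1, ACB1) and 2 below (ELO1, FAA1), where 17.3% and 17.6% did. At 240 against 30 min 6 lay above (OLE1, FAS1, FAS2, ACC1, FAA4, ACB1) and 2 below (ELO1, FAA1), where 13.2% and 11% did. The median log2 fold change of the 10 was -0.73 at 10 min, against -0.01 over all genes, and 0.39 at 240 min, against -0.02. At 240 against 30 min it was 0.90, against 0.0035 over all genes.

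**Figure D4:**
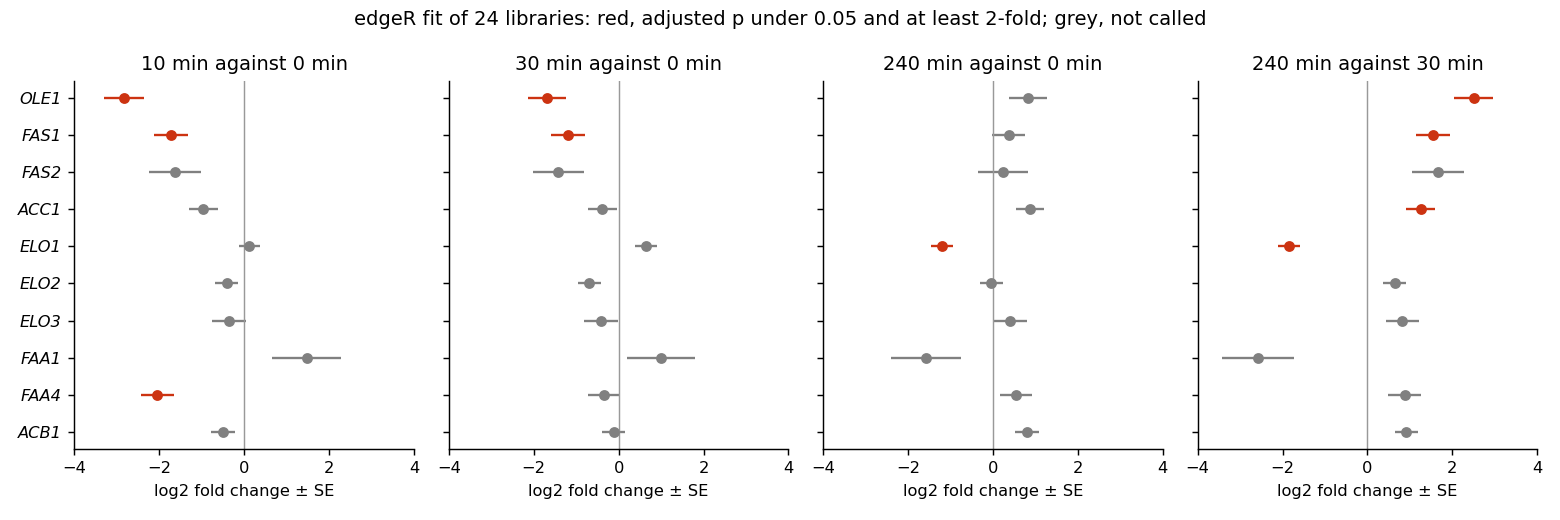
Log2 fold change with its standard error for the 10 genes in 4 comparisons, from the edgeR fit of 24 libraries; red marks an adjusted p under 0.05 with at least a 2-fold change, and grey the rest. OLE1 has -2.83 at 10 min and 2.50 at 240 against 30 min, and ELO1 and FAA1 are the 2 genes below 0 in the last panel (-1.85, called, and -2.58, not called).

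How many of the 10 were called depended on the course left out. Without course 1 there were 5 at 5 min, 6 at 10 min, 4 at 30 min, 3 at 60 min, 1 at 120 min, 2 each at 180 and 240 min and 8 over all times. Without course 2 there were 0 in every comparison, and without course 3 there were 0 at 10 min and 2 over all times. With the course as a block there were 4 at 10 min, 3 at 30 min, 6 at 240 against 30 min and 8 over all times.

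The study took 1 course and called a gene that passed either of 2 tests. Its permutation test of the order of the times was not run here. The other, DESeq2's likelihood ratio test, asks whether counts follow time and its square. In course 1, 7 of the 8 genes with at least a 2-fold range passed at an adjusted p of 0.05, where 24.5% of all such genes did. The other was ELO1 (adjusted p = 0.24), and ELO2 and ELO3 had ranges of 1.49- and 1.94-fold. OLE1 had a range of 7.19-fold (adjusted p = 3.1e-06) with its smallest value at 10 min and its largest at 240 min. In course 2, 4 of the 8 with such a range passed (ACC1, ELO1, FAA1, ACB1), where 19.5% of all genes with that range did. In course 3 all 10 had it and 3 passed (ELO1, FAA1, ACB1), where 14% did. OLE1 was not among them (adjusted p = 0.26 and 0.31), with ranges of 18.0- and 31.9-fold. FAA1 had the widest ranges, 47.5-fold in course 2 and 105-fold in course 3, against 2.45-fold in course 1.

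The genes whose log2 ratios to 0 min lay closest to those of OLE1 over the 21 later libraries were EFM6, which encodes a lysine methyltransferase of an elongation factor, FAS1, IZH2, FAA4 and FAS2. Their root mean square differences were 0.62, 0.76, 0.84, 0.86 and 0.99, where the median of all genes was 1.87. So 3 of these 5 were genes of the 10. The closest to FAS1 were FAS2, ROG1, EFR3, ANR2 and MUM3, at 0.43, 0.44, 0.50, 0.57 and 0.60, where the median was 1.31. Among the 10, FAS1 and FAS2 were the closest pair (0.43), ELO2 and ELO3 the next (0.44), and OLE1 and FAA1 the farthest apart (3.11). Courses share their 0 min library across times, so these differences are a description. ACTCAACAA was not found before EFM6 or any other of these genes. Of the 29 genes that hold it, 27 were tested. At 240 against 30 min 3 of them rose, OLE1 included, and 0 fell, where 3.21% and 3.02% of all genes did. The median of the 27 was 0.20, against 0.0035 over all genes. Against 0 min, 1 rose and 4 fell at 10 min (5.64% and 6.36% of all genes), and 4 rose and 5 fell at 30 min (8.3% and 9.57%). OLE1 was among those that fell at both of these times. At 240 min 4 rose and 3 fell (7.14% and 8.43%). The medians of the 27 at 10, 30 and 240 min were -0.04, -0.29 and -0.08, against -0.01, 0.01 and -0.02 over all genes.

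The related genes were 26 in 6 lists, and all were tested. Over all times 4 were called with their largest change upward (PHS1, ETR1, MCT1, MGA2) and 4 downward (CYB5, SCS7, INO2, ROX1), where 9.36% and 10.5% of all genes were. The largest change of SCS7 was upward (1.37) with counts scaled to the library totals, and that of MGA2 downward (-1.51) without course 1. Without course 2, PHS1, SCS7 and ROX1 missed over all times (adjusted p = 0.41, 0.0501 and 0.19). The largest change of INO2 was then under 2-fold (-0.92). PHS1 also missed over all times without course 3 (adjusted p = 0.32). Of the elongation cycle, 1 of 3 was called. PHS1, the hydroxyacyl-CoA dehydratase that follows the elongases, had 246, 138 and 132 CPM at 180 min, against 77.1, 47.6 and 64.3 CPM at 0 min, and rose by 1.45 (SE 0.42, adjusted p = 0.017), and it was 1.46 without course 2 and 1.65 without course 3, which did not pass (adjusted p = 0.18 and 0.12). With the block PHS1 was also called at 120 min (1.08, adjusted p = 5.2e-05). Over all times its adjusted p was 0.020, and 0.055 with counts scaled to the library totals. IFA38 and TSC13, the reductases of the cycle, were not called. Of the other acyl-CoA synthetases (FAA2, FAA3, FAT1) 0 of 3 were called over all times by edgeR or DESeq2. FAA3 was the 1 with an unadjusted p under 0.05, and it missed the 2-fold minimum alone (adjusted p = 0.00053). It had 87.4, 114 and 112 CPM at 240 min, against 203, 149.8 and 192 CPM at 0 min, with no overlap. Its log2 fold changes were -0.94, -0.87, -0.97 and -0.80 at 60, 120, 180 and 240 min (SE 0.24 each, adjusted p = 0.0080, 0.015, 0.0053 and 0.018).

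The lists of oxygen-linked enzymes and of mitochondrial synthesis held 4 of these 8. CYB5, cytochrome b5, which passes electrons to desaturation and hydroxylation steps, fell at all 7 times. It had 10.9, 7.58 and 4.65 CPM at 30 min, against 116, 167 and 144 CPM at 0 min, a log2 fold change of -4.20 (SE 0.40, adjusted p = 2.4e-07). By 240 min CYB5 had 54.4, 72.1 and 61.3 CPM, all still under 0 min (-1.18, SE 0.35, adjusted p = 0.018). With counts scaled to the library totals CYB5 did not pass at 5 or 240 min (-0.98 and -0.91), and at 5 min it also missed with RLE factors and with no filter (adjusted p = 0.055 in both). Without course 2 it missed at 5, 120, 180 and 240 min (log2 fold changes of -0.86, -1.75, -1.43 and -1.14, adjusted p = 0.74, 0.095, 0.11 and 0.19). Without course 3 it missed at 5 and 240 min (-1.06 and -1.14, adjusted p = 0.25 and 0.065). SCS7, which hydroxylates very long chains with oxygen, rose at 30 min by 1.16 (SE 0.31, adjusted p = 0.0070), with 269, 429 and 444 CPM. It fell at 240 min, to 56.1, 66.2 and 58.5 CPM, against 147, 162 and 201 CPM at 0 min (-1.50, SE 0.31, adjusted p = 0.0012). Without course 2 these changes of SCS7 were 1.05 and -1.58 and did not pass (adjusted p = 0.25 and 0.098), and without course 3 that at 30 min was 1.22 and did not (adjusted p = 0.0504). With the block SCS7 also fell at 240 against 120 min (-1.21, adjusted p = 0.00019). CBR1, the reductase partner of CYB5, was not called and went the other way. It had 801 to 1302 CPM at 240 min, against 477 to 671 CPM at 0 min, with no overlap. Of the 8 genes of mitochondrial fatty acid synthesis 2 were called over all times, both upward. Neither passed over all times without course 2 (adjusted p = 0.34 for ETR1 and 0.083 for MCT1) or without course 3 (0.26 and 0.44). ETR1, its enoyl reductase, had 119.8, 150.2 and 213 CPM at 30 min, against 56.6, 54.9 and 44.7 CPM at 0 min, and rose by 1.63 (SE 0.28, adjusted p = 0.00016). MCT1, its malonyl transferase, had 81.9, 107 and 127 CPM at 60 min, against 43.1, 73.3 and 39.9 CPM at 0 min, and rose by 1.02 (SE 0.20, adjusted p = 0.0012). Neither gene's libraries overlapped between these times. HFA1, another of the 8, was not called and went the other way. It had 46.8 to 71.0 CPM at 30 min, against 76.9 to 129.9 CPM at 0 min, with no overlap. Of acetyl-CoA and biotin supply, 0 of 3 were called over all times by edgeR, where 1 had an unadjusted p under 0.05, and 1 (ACS2) by DESeq2. ACS2, an acetyl-CoA synthetase, had 137, 264 and 218 CPM at 30 min, against 333, 465 and 555 CPM at 0 min. It fell by 1.13 (SE 0.33, adjusted p = 0.016), and by 0.91, under 2-fold, with counts scaled to the library totals. Without course 2 or 3 this change of ACS2 was -1.30 and -0.94 and did not pass (adjusted p = 0.13 and 0.33), and that of MCT1 without course 3 was 0.73 (adjusted p = 0.17). Over all times the block called ACS2 too (adjusted p = 2.4e-06). ACS1, the other acetyl-CoA synthetase, went the other way and was not called by edgeR. Its mean was 35.9 ± 11.2 CPM at 30 min, against 12.5 ± 10.4 CPM at 0 min (SD, n = 3 each), with no overlap.

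**Figure D5:**
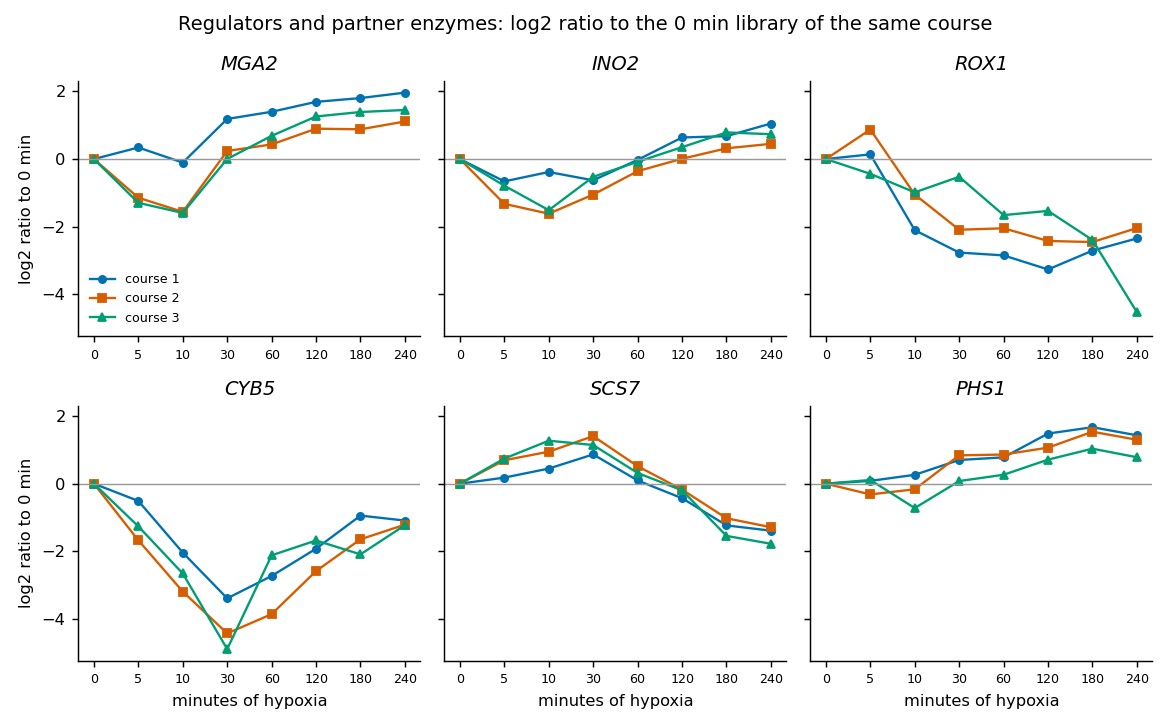
Log2 ratio to the 0 min library of the same course for the regulators MGA2, INO2 and ROX1 and the enzymes CYB5, SCS7 and PHS1, against minutes of hypoxia in equal steps. MGA2 and INO2 are lowest at 10 min in courses 2 and 3, CYB5 is lowest at 30 min in all 3 courses, and ROX1 ends 2 or more log2 units under its start in each.

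Of the 6 regulators 3 were called over all times. MGA2, an activator of OLE1, had 130.1, 117 and 91.6 CPM at 10 min, against 139.9, 346 and 277 CPM at 0 min, and fell by 1.17 (SE 0.29, adjusted p = 0.0061). With counts scaled to the library totals this change was -0.97, under 2-fold. At 240 min it had 547, 747 and 757 CPM, above 0 min in 3 of 3 courses, and rose by 1.43 (SE 0.29, adjusted p = 0.0010). SPT23, its relative, was not called, and had 66.9, 79.1 and 73.3 CPM at 240 min, against 83.2, 112 and 126 CPM at 0 min. INO2 fell at 10 min by 1.20 (SE 0.24, adjusted p = 0.0014), with 29.6, 23.9 and 18.6 CPM, against 38.7, 73.7 and 53.3 CPM at 0 min. It rose at 240 against 30 min, by 1.47 (SE 0.25, adjusted p = 0.00057), with 80.4, 100.7 and 88.8 CPM at 240 min, against 25.0, 35.5 and 36.9 CPM at 30 min. INO4 had 62.8, 48.0 and 42.1 CPM at 240 min, against 29.9, 29.2 and 25.5 CPM at 0 min, a change of 0.85 that stayed under 2-fold. OPI1 had 55.5, 43.6 and 37.3 CPM at 180 min, against 108, 87.5 and 112 CPM at 0 min, and fell by 1.18 on the log2 scale (SE 0.35, adjusted p = 0.020). With the course as a block OPI1 was also called at 120 min (-1.01, adjusted p = 0.00010) and over all times (adjusted p = 9.7e-05), and without course 1 at 60 and 120 min (-1.03 and -1.19). ROX1, a repressor that depends on heme, was called lower at 30 min and at each later time. At 10 min it already had 26.1, 37.6 and 38.7 CPM, under all 3 libraries of 0 min, a change of -1.39 (SE 0.54, adjusted p = 0.092) that passed without course 3 (-1.55, adjusted p = 0.0098). It had 22.0, 18.8 and 3.13 CPM at 240 min, against 113, 78.0 and 76.9 CPM at 0 min (-2.61, SE 0.57, adjusted p = 0.0019). With counts scaled to the library totals OPI1 did not pass at 180 min, nor ROX1 at 30 min. Without course 2 the calls given for INO2 at both comparisons, OPI1, MGA2 at 10 min and ROX1 at 240 min did not pass (log2 fold changes of -0.92, 1.46, -1.21, -0.90 and -2.91, adjusted p = 0.19, 0.074, 0.25, 0.34 and 0.076). Without course 3 those of INO2, OPI1 and MGA2 did not (-1.03, 1.56, -0.96 and -0.94, adjusted p = 0.17, 0.067, 0.22 and 0.30), and MGA2 missed at 240 min too (1.44, adjusted p = 0.051). Without course 1 ROX1 did not pass at 30, 60 or 120 min (-1.03, -1.77 and -1.83, adjusted p = 0.29, 0.098 and 0.090). Without course 2 ROX1 also missed at 30, 60, 120 and 180 min (-1.42, -2.22, -2.27 and -2.55, adjusted p = 0.38, 0.22, 0.24 and 0.13). These are levels of RNA. The processing of Mga2 and Spt23 was not measured.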

How the data were processed

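The deposited values are counts of reads for each feature. The authors trimmed the reads, mapped them with TopHat2 to build R64 and counted them with HTSeq (versions not given in the sources used here), leaving reads with several alignments uncounted. In courses 2 and 3 the files give 57.8 to 122 such alignments per 100 counted reads; these, reads outside features (3.81% to 5.60%) and ambiguous reads were left out. The paper describes the library preparation and trimming for 1 course.

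Counts were fitted with edgeR 4.0.16 (R 4.3.3). TMM factors, a filter on low counts by time, and time as a factor over 24 libraries were used, with robust quasi-likelihood F-tests and Benjamini-Hochberg adjustment over 6262 genes. A call needed an adjusted p below 0.05 together with a change of 2-fold or more. Unless another test is named, fold changes, SE and adjusted p values come from this fit. CPM use TMM library sizes. The fit had 16 residual degrees of freedom and a biological coefficient of variation of 0.59. Ratios of pairs were compared by exact permutation tests. For the DESeq2 part of the study's design, DESeq2 1.42.0 was run on 1 course, with PAU genes left out. Counts were scaled to the smallest total and floored at 20 for the 2-fold minimum. The edgeR fit without a block was tried on simulated counts with no difference between courses. Its pass mark was set at a smaller spread than that of these data. The block and the test of 1 course were not simulated.

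Numbers of courses pair libraries. Residuals from the mean of each time correlated at 0.777 to 0.913 within course 1, 0.565 to 0.728 within course 2 and 0.498 to 0.736 within course 3, over 28 pairs each, and the labels number whole courses. The alternatives were RLE factors, scaling to library totals, no filter, no fold minimum, DESeq2, the course as a block, and each course left out.

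The 10 genes and the lists were chosen with earlier results of these data known. All 10 are named, with every related gene called over time (at most 4 a list) and all 6 regulators; ACS2 and the genes named as not called are outside that rule and were added with their values known. The 3 motifs were also chosen then. Promoters were read from the R64 sequence of RefSeq, and no protein sequence was used here.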

Additional observations from a re-analysis of the deposited data

How the results depend on the processing

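RLE factors and no filter changed no call of the 10 genes in any of the 10 comparisons of times. No call between 2 times reversed. DESeq2 added 7 calls and lost 0 of 100, the course as a block added 8 and lost 0, and scaling to library totals added 6 and lost 3. Of 100 calls or misses of the 10 related genes called, scaling to totals lost 8 and added 3, and leaving out course 1, 2 or 3 lost 4, 31 and 22.

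The number of the 10 genes called moved under these settings. DESeq2 gave 1 at 5 min and 1 at 240 against 120 min, where edgeR gave 0. With the replicate block there were 2 at 180 min and 1 at 240 against 120 min, in place of 1 and 0. Of the changed calls under the block, those of FAS2, ACC1, FAA1 and ELO1 are given in the report, and the block also called FAS2 and ACC1 over all times (adjusted p = 1.4e-08 and 5.5e-05). The block changed no other call of the 10 genes. Scaling to library totals gave 1 in the 30 min comparison, in place of 2, and 2 each for 180 and 240 min (ACC1 and ACB1 up at 240 min), in place of 1 each. With no fold minimum there were 2 at 240 min. With 1 course left out the number ranged from 0 to 5 in the 5 min comparison, 0 to 6 in that of 10 min, 0 to 4 for 30 min, 0 to 3 for 60 min and 0 to 1 for 120 min. It was 0 to 2 for 180 min, 240 min and 240 against 120 min, 0 to 6 for 240 against 30 min and 0 to 8 over all times. In the DESeq2 part of the study's design, 4 were called with course 2 and 3 with course 3, in place of 7 with course 1.

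A test over all times has no direction, and calls alone were compared there, a choice made after seeing the data. With totals as scaling the largest change of ELO1 was 0.93, under 2-fold and upward, and that of ACC1 was 1.20, upward and called. That of FAA1 was 1.58, upward and called, in place of -1.58. Without course 3 the largest changes of ELO1 and FAA1 were also upward (1.17 and 1.35) and not called. The largest change of ACC1, -0.96, was upward too with the block (1.01) and at just under 1 with RLE factors, no filter and DESeq2. The ratios of pairs could not pass 0.05 in any setting; with courses paired, the smallest p was 0.25.

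Over all genes, counts called were 373 at 5 min (4 to 767 with 1 course left out), 751 at 10 min (298 to 1189), 1119 at 30 min (661 to 1574), 732 at 60 min (154 to 1124), 652 at 120 min (85 to 1078), 850 at 180 min (299 to 1185), 975 at 240 min (377 to 1417), 390 at 240 against 30 min (77 to 673), 19 at 240 against 120 min (1 to 73) and 1246 over all times (332 to 2063). With no fold minimum 60 min had 1106 calls, 120 min 1008, 180 min 1298 and 240 against 30 min 632. At 240 against 30 and 120 min the block gave 616 and 61, and DESeq2 gave 44 at 240 against 120 min. Scaling to totals moved the median of all genes to 0.13 at 10 min, 0.25 at 30 min and 0.24 at 240 min. It split the calls into 674 up and 439 down at 30 min, in place of 520 and 599, and into 646 up and 335 down at 240 min, in place of 447 and 528. At 10, 60, 120 and 180 min the splits were 417 and 318, 547 and 212, 448 and 185, and 505 and 318, in place of 353 and 398, 346 and 386, 316 and 336, and 412 and 438.

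The lowest count of the 10 genes in a library was 61, and their 0 min libraries lay up to 5.12-fold apart (FAS2).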
